A study of Mus musculus with 4 samples.

Results

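The cells described here were chosen with a rule for pericytes, the cells that wrap capillaries and small venules from outside the endothelium. A barcode of the digit suspension was kept when it held 200 to 5500 genes, at most 30000 unique molecular identifiers (UMIs, which count captured RNA molecules) and at most 10% mitochondrial UMIs, and 93602 of 113503 barcodes were kept. Among these, a rule cell held at least 1 UMI in 3 or more of *Rgs5*, *Kcnj8*, *Abcc9*, *Pdgfrb* and *Notch3*, at most 1 UMI of *Myh11* and 0 UMIs of *Pecam1*. The rule found 677 cells, 0.723% of those kept. Since measured values chose the cells, the levels of these 7 genes are a description.

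The study asked how lymphatic vessels act on regrowth of the amputated distal phalanx (P3) of mouse hindlimb digits. All 4 libraries were labeled P3 digit and came from female C57BL/6 mice (C57BL/6J in the study's methods) of 6 to 8 weeks. Each library pooled 10 mice, and the tissue was digested with collagenases and dispase, treated to lyse red cells and profiled with 10x Genomics Single Cell 3′ v3 chemistry. By those methods the hindlimb digits were cut at the phalanx proximal to P3, so the libraries can hold tissue beyond P3. The digits taken were not all among those the methods name as amputated. The SAR131675 library came from mice fed chow with that inhibitor of VEGFR3, the receptor for lymphatic growth factors, at 30 mg per kg of chow, and its partner from mice on matched chow (control diet). The series' design text gives 8 days of this chow, whereas the study's methods start it 5 days before amputation and keep it up to the end. The LNR library came from limbs whose inguinal and popliteal lymph nodes had been removed, and its partner from sham-operated limbs on the opposite side. The labels give both partners as having no treatment, and the words control diet and sham come from the series' design text and the study. The study's text gives 8 days after amputation for these libraries, and for the diet pair a figure legend gives 5. Each condition was 1 library and its own batch, so condition and batch cannot be told apart and no test across animals was possible. The LNR and sham limbs may come from the same mice. Intervals below are 95% and cover counting error only.

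Pericytes and vascular smooth muscle cells together form the mural cells. Platelet-derived growth factor from endothelium recruits them through *Pdgfrb*, Notch signals from endothelium hold their state through *Notch3*, and *Rgs5* encodes a regulator that shortens signals from G protein-coupled receptors. *Kcnj8* and *Abcc9* encode the pore and the regulatory subunit of one ATP-sensitive potassium channel, which links metabolic state to membrane potential and so to vessel tone. Pericytes carry little of the contractile apparatus of smooth muscle, of which *Myh11* is the myosin heavy chain.

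The 250 bases before the annotated starts of *Rgs5*, *Kcnj8* and *Abcc9* are shown because the next sections turn on cells in which the channel genes were detected with or without *Rgs5*. They are RefSeq sequences on build GRCm38.p6, printed 5′ to 3′ along the gene's strand. *Rgs5* lies on the plus strand (chr1:169655251-169655500). *Kcnj8* (chr6:142571615-142571864) and *Abcc9* (chr6:142702275-142702524) lie on the minus strand, with 0 protein-coding genes between them. Capitals mark TGGGAA, the core bound by the Notch partner RBPJ, and CANNTG, the E-box, on either strand.
Rgs5: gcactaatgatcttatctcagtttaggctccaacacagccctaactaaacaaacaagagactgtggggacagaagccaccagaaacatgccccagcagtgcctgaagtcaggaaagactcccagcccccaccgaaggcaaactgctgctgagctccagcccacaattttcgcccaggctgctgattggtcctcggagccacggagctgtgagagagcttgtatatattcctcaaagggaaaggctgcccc
Kcnj8: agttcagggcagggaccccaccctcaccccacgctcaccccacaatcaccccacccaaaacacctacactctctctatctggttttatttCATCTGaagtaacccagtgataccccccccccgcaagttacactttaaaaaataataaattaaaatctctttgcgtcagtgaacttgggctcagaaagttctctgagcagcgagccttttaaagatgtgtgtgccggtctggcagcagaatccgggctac
Abcc9: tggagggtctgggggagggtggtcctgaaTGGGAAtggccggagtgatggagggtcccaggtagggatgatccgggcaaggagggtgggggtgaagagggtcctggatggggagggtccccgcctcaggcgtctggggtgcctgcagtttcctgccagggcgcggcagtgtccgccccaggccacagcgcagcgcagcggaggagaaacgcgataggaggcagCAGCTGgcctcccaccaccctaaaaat
TGGGAA was found once, in *Abcc9*, 221 bases before the start, and 21.6% of all 32851 promoters of this length held it. The E-box was found once in *Kcnj8* and once in *Abcc9*, against 66.2% of all promoters. TATAAA, held by 12.4% of promoters, and the CArG box bound by serum response factor, held by 1.47%, were in none of the 3. These matches describe letters only and say nothing of binding.

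The rule found 135 cells in SAR131675, 136 in control diet, 207 in LNR and 199 in sham. These were 0.464% (0.389 to 0.549%), 0.566% (0.475 to 0.669%), 1.04% (0.907 to 1.20%) and 0.963% (0.834 to 1.11%) of kept cells. The intervals of the 2 libraries of each pair overlapped. The log2 ratio of shares was -0.29 (-0.64 to 0.07) for SAR131675 over control diet and 0.12 (-0.17 to 0.40) for LNR over sham, so neither pair differed beyond counting error. The diet libraries were deeper, with 585284877 and 448276501 UMIs against 168507188 and 175998346, and medians of 11316 and 10712 UMIs per kept cell against 5725 and 5851. The upper limits on genes and UMIs kept out 63, 35, 6 and 11 cells that met the rule in SAR131675, control diet, LNR and sham. Barcodes shared between the libraries of a pair numbered 210 in the diet pair and 101 in the surgery pair, of which 3 in each pair were rule cells in 1 of the 2 libraries. No doublet caller was run.

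The rule cells were a mixture of cells with and without *Rgs5*, and the data went against the pericyte label for the second kind. An *Rgs5* UMI was present in 71 of the 135 SAR131675 cells (52.6%), 57 of 136 in control diet (41.9%), 174 of 207 in LNR (84.1%) and 153 of 199 in sham (76.9%). The remaining 64, 79, 33 and 46 cells passed mostly through *Kcnj8*, *Abcc9* and *Pdgfrb* together, which was the marker set of 48, 59, 20 and 32 cells. The cells without *Rgs5* were the deeper ones, with medians of 13475, 11698, 6222 and 5903 UMIs against 3309, 4760, 2807 and 3320 in the cells with it. When each cell was first thinned to 2000 UMIs and shallower cells were left out, the rule found 111, 90, 129 and 104 cells. Of these 108, 81, 127 and 96 (97.3%, 90%, 98.4% and 92.3%) held *Rgs5*. The share was higher than before thinning in each library, while the number of cells with *Rgs5* was higher in the diet pair only. Thinning also takes away *Myh11* and *Pecam1* UMIs, so cells that the full counts had left out came in. The thinned cells are therefore not the same cells, and their share is no correction for depth. When 4 markers were required, 44, 40, 94 and 86 cells were left and 93.2%, 87.5%, 98.9% and 96.5% held *Rgs5*. Since *Rgs5* is 1 of the 5 markers, a cell without it then had to hold all 4 others, as 3, 5, 1 and 3 cells did. That share is thus set in part by the rule and is no support for the split. The plot of rule cells by library gives both kinds as shares of kept cells.

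**Figure D1:**
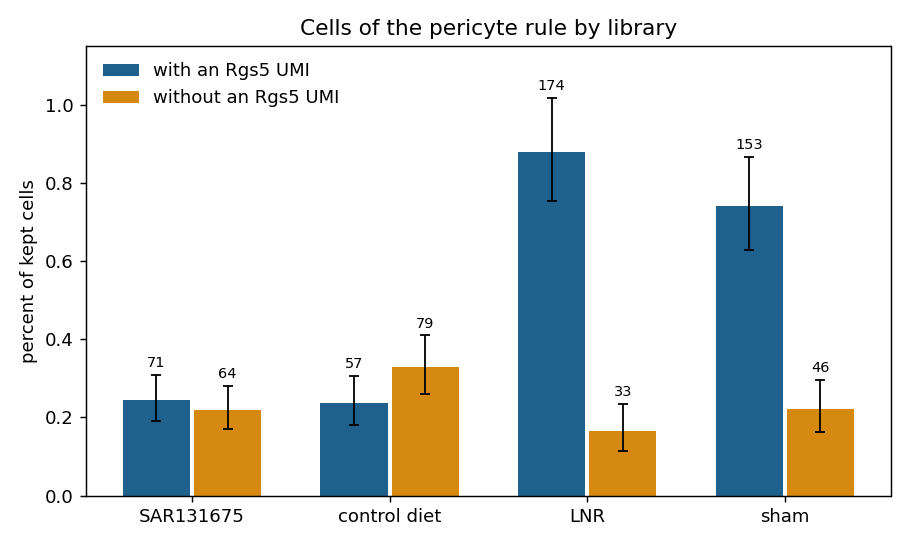
Rule cells as a percent of kept cells in each library, split by whether an *Rgs5* UMI was detected; bars are shares, error bars exact 95% binomial intervals, and the numbers over the bars are cells. The bars with *Rgs5* stand at 0.244% and 0.237% in the diet pair and at 0.878% and 0.740% in the surgery pair, and those without it lie between 0.166% and 0.329%; only bars of 1 pair are compared, since the pairs differ in depth and software.

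*Pdgfra*, a receptor that marks fibroblasts, was detected in 92.2%, 88.6%, 84.8% and 89.1% of the rule cells without *Rgs5* (in the order SAR131675, control diet, LNR and sham, which holds for every set of 4 values below), against 12.7%, 22.8%, 13.8% and 22.2% of those with it. The cells without *Rgs5* were the deeper ones, as given above, and detection of a gene rises with depth. The part of depth in this gap was not tested. *Dcn*, the matrix proteoglycan decorin, summed to 14210, 15669, 9961 and 8103 CPM (UMIs of the gene scaled to one common total in every set) without *Rgs5*, beside 12645, 14290, 12124 and 11196 CPM in fibroblast-like cells, which were picked by UMIs of fibroblast genes. *Rgs5* itself was detected in 5.19%, 4.86%, 6.09% and 8.19% of fibroblast-like cells and in 2.83%, 1.56%, 2.61% and 3.63% of keratinocyte-like cells, which sets its background. None of *Higd1b*, *Vtn* and *Gja4*, which are high in pericytes, had a UMI in any rule cell without *Rgs5*. For *Higd1b* this allowed at most 3.76, 3.19, 10.1 and 8.60 CPM (3 counts), while rule cells with *Rgs5* held 45.5, 73.1, 123 and 56.4 CPM. Other pericyte genes were present in them. Of the 20 listed outside the rule, 4 had the 100 UMIs for a test against other kept cells. Of these 1 was at least 4-fold higher in every library, as 2.53% of all genes tested were, and the median log2 ratio was 1.79 against 0.16. Against fibroblast-like cells 0 of 19 passed 4-fold, with a median of 0.24 against 0.06 over all genes. The cells without *Rgs5* are given no cell type name and are called by that feature below.

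The rule cells without *Rgs5* were set against fibroblast-like cells, which held 130106571 UMIs in all against 2385646. Of 15007 genes tested, with at least 100 UMIs in both sets together over the 4 libraries, 6 (0.04%) were at least 4-fold higher in rule cells without *Rgs5* in all 4 libraries and 22 (0.147%) at least 4-fold lower. Of these genes 4460 reached 100 UMIs in the rule cells without *Rgs5* alone, 2 of the 6 among them, so for most genes tested the depth limits what can be called higher. The highest were the rule genes *Kcnj8*, with 96.4, 148, 121 and 172 CPM against 2.48, 2.54, 6.15 and 6.19, and *Abcc9*, with 232, 280.5, 175 and 163 CPM against 12.2, 14.5, 11.9 and 10.4. None of the 11 fibroblast genes passed 4-fold either way, and their median log2 ratio was 0.31 against 0.06 over all genes tested. *Pdgfra* and *Col1a1* are among the 11 and chose the fibroblast-like cells, so their ratios follow in part from that choice. Among the lower genes, *Prg4*, the lubricant of synovial surfaces, was at 66.4, 82.9, 273 and 287 CPM against 16446, 15774, 19402 and 20289 CPM. *Clic5*, a chloride channel family member, was at 3.76, 2.12, 0 and 0 CPM against 370.1, 351, 305 and 336 CPM. For both genes every library of rule cells without *Rgs5* lay below every fibroblast-like one.

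Against all other kept cells, where a gene needed 100 UMIs in the rule cells themselves, 113 of 4460 genes (2.53%) were at least 4-fold higher in rule cells without *Rgs5* in every library and 4 (0.0897%) lower. Among the higher ones were 9 of the 22 tested genes of interstitial matrix and remodeling and 4 of 11 fibroblast genes. *Sfrp4*, a secreted Wnt antagonist, was at 451, 454, 538 and 264 CPM, against 138, 159.6, 117 and 91.9 CPM in fibroblast-like cells. *Wnt2*, a Wnt ligand, was at 97.7, 90.3, 57.2 and 115 CPM against 30.6, 38.1, 22.3 and 17.5 CPM. *Igfbp5*, which binds insulin-like growth factors, was at 6111, 5787, 5563 and 5702 CPM against 2438, 2832, 2414 and 2264 CPM. In these 3 genes all 4 libraries of rule cells lay above all 4 fibroblast-like ones. *Col14a1*, a fibril-associated collagen, was at 895, 876, 347 and 333 CPM against 322, 347, 199 and 167 CPM, higher within each library. Since UMIs chose the cells, no test was made of these differences.

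The rule cells with *Rgs5* carried the other pericyte genes. Of 7127 genes tested, 84 (1.18%) were at least 4-fold higher with *Rgs5* than without it in every library and 18 (0.253%) lower. The higher ones included 11 of the 18 tested pericyte genes that the rule did not use, where the median log2 ratio was 3.16 against 0.05 over all genes tested, and 7 of the 11 tested smooth muscle genes other than *Myh11*. *Cox4i2*, a subunit of cytochrome c oxidase, was at 114, 81.2, 189 and 82.8 CPM with *Rgs5* and at 1.25, 0, 3.37 and 2.87 CPM without it. In *Cox4i2* the libraries of the 2 sets did not overlap. *Notch3* was at 524, 400.4, 382 and 234 CPM against 32.6, 52.1, 50.5 and 51.6 CPM. It is a rule gene, and most cells without *Rgs5* passed through *Kcnj8*, *Abcc9* and *Pdgfrb* with no *Notch3* UMI. Its gap therefore follows in part from the rule and is a description only. The map of levels shows the same split for *Vtn* and *Des*, while *Kcnj8* was at 111, 143, 175 and 110.0 CPM with *Rgs5*, overlapping its levels without it.

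**Figure D2:**
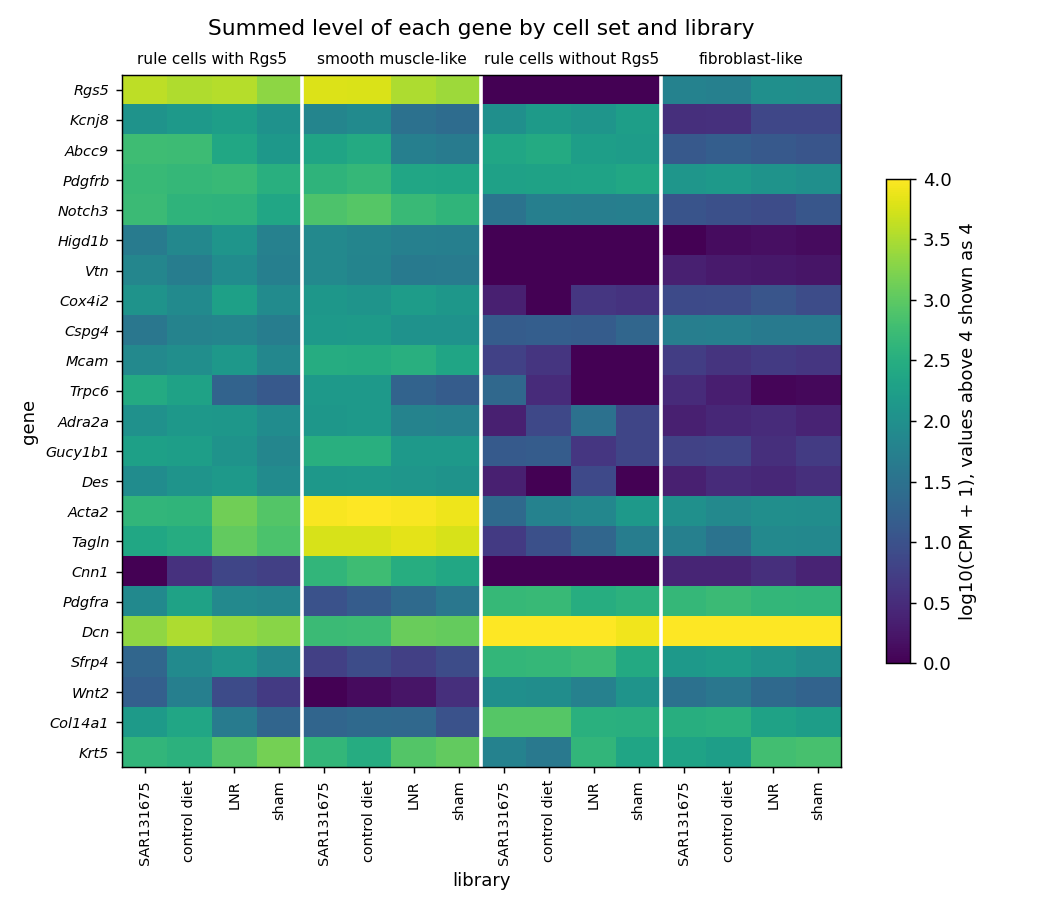
Level of 23 genes (rows) in 4 sets of cells, each with its 4 libraries (columns), as log10 of CPM + 1 over summed UMIs, with values above 4 drawn as 4. Rule cells with *Rgs5* share *Higd1b*, *Vtn* and *Des* with smooth muscle-like cells but hold less *Acta2*, *Tagln* and *Cnn1*, and rule cells without *Rgs5* share *Pdgfra* and *Dcn* with fibroblast-like cells. *Acta2* and *Tagln* helped to choose the smooth muscle-like cells, and *Pdgfra* the fibroblast-like ones.

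Against all other kept cells, 81 of 7127 genes (1.14%) were at least 4-fold higher in the 677 rule cells in every library. In those with *Rgs5* the count was 110 of 4442 (2.48%). Of the 20 pericyte genes listed outside the rule 15 were tested, and 10 of the 15 were among the 110. Of the 24 genes of vascular tone listed outside the rule 13 were tested, and 12 of the 13 were among them. The median log2 ratios of the tested pericyte and tone genes were 3.29 and 3.63 against 0.07 over all genes tested. As in the comparison with other kept cells above, a gene was tested only if the rule cells themselves held the minimum of UMIs. Genes low in these cells were thus left out, so the counts cover the tested genes and not the whole lists.

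Most tested receptors and signal regulators of vessel tone stood high in the cells with *Rgs5* against other kept cells, but not against smooth muscle-like cells. Against these, 0 of the 19 tested tone genes outside the rule were at least 4-fold higher in every library and 2 lower. Their median log2 ratio was -1.06 against 0.11 over all 10703 genes tested, of which 0.0467% were higher and 0.71% lower. *Adra2a*, a receptor for noradrenaline, was at 104, 133, 132 and 87.5 CPM against 3.09, 2.92, 3.54 and 3.01 CPM in other kept cells. *Agtr1a*, the angiotensin II receptor, was at 60.7, 48.7, 42.9 and 28.2 CPM, and smooth muscle-like cells held 16.8, 20.8, 7.88 and 5.33 CPM, so every library of rule cells with *Rgs5* lay above each of these. *Rgs16* and *Rgs4* belong to the same family as *Rgs5*. *Rgs16* was at 367, 414, 585 and 349.9 CPM, and *Rgs4* at 126, 187, 126 and 86.5 CPM, below its 454, 448, 234 and 179 CPM in smooth muscle-like cells of the same libraries. *Gucy1b1*, a subunit of the nitric oxide receptor, was also lower within each library than in smooth muscle-like cells, at 185, 173, 113 and 68.7 CPM against 330.3, 333, 147 and 138 CPM.

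*Gja4*, a gap junction protein, was at 88.5, 75.8, 100.1 and 59.3 CPM. *Des*, the intermediate filament desmin, was at 88.5, 116, 139 and 84.7 CPM, and *Vtn*, the adhesive glycoprotein vitronectin, at 68.3, 48.7, 85.8 and 51.7 CPM. Each of these 3 genes stayed within a factor of 3 across the 4 libraries. By contrast *Trpc6*, a cation channel, was at 273, 198, 17.9 and 12.2 CPM and *Lin7a*, a scaffold protein, at 344, 614, 63.1 and 47.0 CPM, both far higher in the diet libraries. The same gap stood in smooth muscle-like cells, where *Trpc6* was at 147, 147, 17.8 and 13.5 CPM. The diet files name Cell Ranger 8.0.1 and the surgery files 6.1.2 in their headers, so software, depth and experiment cannot be told apart here, and conditions are compared only within a pair.

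Among ligands and receptors of vessel signaling, the genes at least 4-fold higher with *Rgs5* than without it in every library, as 1.18% of all genes tested were, numbered 1 of the 3 tested genes of PDGF signaling outside the rule (*Pdgfa*), 1 of 7 of Notch signaling (*Heyl*), 1 of 7 of VEGF ligands and receptors (*Flt1*) and 0 of 3 of angiopoietin and Tie. Of 16 chemokines, cytokines and adhesion genes 0 passed either way. *Pdgfb*, the endothelial ligand of *Pdgfrb*, was at 196, 205, 124 and 108 CPM in blood endothelial-like cells and at 7.59, 5.41, 2.38 and 8.47 CPM in rule cells with *Rgs5*. *Heyl*, a Notch target, was at 55.7, 40.6, 50.0 and 18.8 CPM with *Rgs5* and 5.01, 6.37, 0 and 2.87 CPM without it, with no overlap of libraries. *Angpt2*, which loosens the contact of endothelium and mural cells, was at 43.0, 122, 60.7 and 38.6 CPM with *Rgs5* and 30.1, 20.2, 3.37 and 2.87 CPM without it. *Vegfa* ran the other way, at 37.9, 37.9, 40.5 and 35.7 CPM with *Rgs5* and 97.7, 113, 108 and 83.2 CPM without it. Cytokines were present too, with *Il6* at 299, 252, 384 and 190.0 CPM against 45.1, 19.1, 57.2 and 48.8 CPM, and every library with *Rgs5* above every one without it. *Ccl2*, which draws monocytes, was at 101, 211, 493 and 393 CPM with *Rgs5* and at 21.3, 60.6, 43.7 and 172 CPM without it, where the ranges overlapped.

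Most barcodes like the rule cells with *Rgs5* lay beyond the *Myh11* limit. Among kept barcodes with *Rgs5*, 3 or more rule genes and no *Pecam1*, 521 of 592 in SAR131675, 360 of 417 in control diet, 332 of 506 in LNR and 293 of 446 in sham held 2 or more *Myh11* UMIs and so fell outside the rule. *Acta2*, smooth muscle actin, was at 233, 309, 842 and 783 CPM in barcodes with 0 *Myh11* UMIs. It was at 843, 575, 2180 and 932 CPM with 1, and at 1029, 924, 3250 and 2789 CPM with 2, just past the limit. It reached 9982, 11028, 10362 and 11657 CPM with 11 or more. From 1 to 2 *Myh11* UMIs, across the limit, the level differed less than between the ends in each library. In sham this was, as a ratio, the largest step between neighboring bins, and *Rgs5* went from 1962 to 3869 CPM there. Just below the marker limit, 691, 531, 491 and 439 kept barcodes held exactly 2 rule genes, and 38, 30, 105 and 125 were left out for *Pecam1*. A barcode with few *Myh11* UMIs can be a cell of another kind or a shallow one, and these cannot be told apart from the counts.

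**Figure D3:**
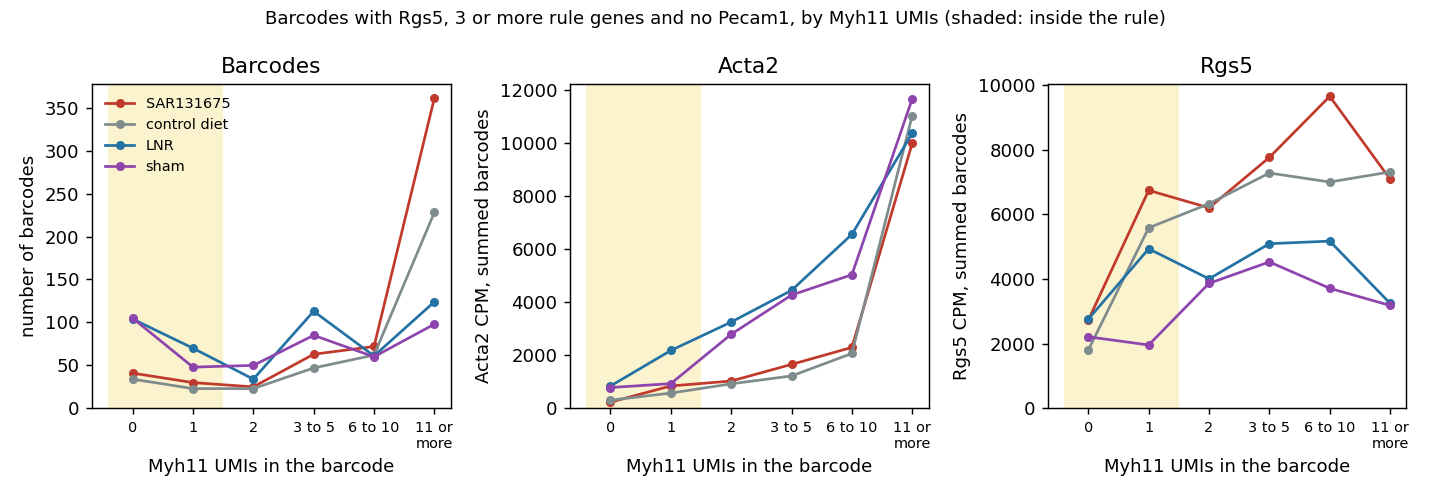
Barcodes with *Rgs5*, at least 3 rule genes and no *Pecam1*, by their *Myh11* UMIs (horizontal axis; the shaded part is inside the rule), with the number of barcodes, *Acta2* CPM and *Rgs5* CPM in each library. *Acta2* climbs from bin to bin in each library, from 233 to 9982 CPM in SAR131675, and in sham its largest step as a ratio, from 932 to 2789 CPM, lies at the limit.

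Smooth muscle-like cells, which held at least 2 UMIs of *Myh11* with *Acta2* and *Tagln*, numbered 615, 406, 575 and 511. Compared with them, 48 of 11117 genes (0.432%) were at least 4-fold higher in all rule cells in every library and 114 (1.03%) lower. In rule cells with *Rgs5*, 5 of 10703 genes (0.0467%) were higher and 76 (0.71%) lower. Of the 13 smooth muscle genes that chose neither set, 7 were lower, with a median log2 ratio of -2.67 against 0.11 over all genes tested. The 2 sets were split on *Myh11*, and *Acta2* rose with *Myh11* UMIs as given above. Lower levels of other smooth muscle genes can thus follow in part from this choice and are a description only. *Cnn1*, calponin, was at 0, 2.71, 5.96 and 4.70 CPM against 423, 562, 311 and 249 CPM. *Pln*, which restrains the calcium pump of the reticulum, was at 0, 0, 2.38 and 7.52 CPM against 268, 208, 273 and 212 CPM. The 19 tested pericyte genes outside the rule had a median log2 ratio of 0.03 and 0 of them passed 4-fold either way, so by this list the rule cells with *Rgs5* and the smooth muscle-like cells were not separated.

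The 5 genes higher in rule cells with *Rgs5* were *Col11a1*, *Fmo2*, *Sfrp4*, *Adarb2* and *Penk*. *Adarb2*, of the RNA-editing enzyme family, was at 240.3, 317, 5.96 and 1.88 CPM against 31.7, 54.2, 0.343 and 0.356 CPM, near the floor in the surgery libraries. *Sfrp4* was at 20.2, 81.2, 123 and 69.6 CPM against 4.77, 7.49, 4.80 and 7.47 CPM, and fibroblast-like cells held the levels given above. *Lama2*, a laminin chain of basement membranes, was at 435, 528, 40.5 and 32.9 CPM against 84.7, 95.4, 14.7 and 9.24 CPM, while fibroblast-like cells held 795, 831, 123 and 108 CPM. The part of fibroblast RNA in these values was not tested.

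UMIs of other cell types were frequent among the rule cells with *Rgs5*. The 8 keratinocyte genes summed to 10119, 8358, 6550 and 19132 CPM, and the 11 fibroblast genes to 7030, 13977, 9212 and 7027 CPM. *Krt5* was detected in 23.9%, 26.3%, 27.0% and 41.2% of them. The endothelial gene *Cdh5* was at 0, 0, 7.15 and 17.9 CPM against 568, 572, 496 and 445 CPM in blood endothelial-like cells. The main comparisons within a pair are therefore also given for the rule cells with *Rgs5* and no UMI of *Pdgfra*, *Cdh5*, *Krt5*, *Ptprc*, *Sox10* or *Prox1*, called the stricter cells, an alternative chosen after seeing the data. These were 46 cells in SAR131675, 31 in control diet, 110 in LNR and 74 in sham, with medians of 2172.5, 4060, 2352 and 2042 UMIs.

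The diet pair set VEGFR3 inhibition against control chow. The share of rule cells with *Rgs5* was 0.244% with SAR131675 and 0.237% with control diet, a log2 ratio of 0.04 (-0.48 to 0.57). Without *Rgs5* it was 0.220% and 0.329%, a log2 ratio of -0.58 (-1.08 to -0.08). It was 0.29 (-0.39 to 1.00) for the stricter cells. Smooth muscle-like cells made up 2.12% and 1.69% (log2 ratio 0.32, 0.14 to 0.51). With 1 library a condition, these ratios compare the libraries and not the diets.

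Over all rule cells, 28 of 4907 genes (0.571%) were at least 2-fold higher with SAR131675 and 35 (0.713%) lower, and the median log2 ratio of all genes was -0.01. Of these 63 genes, 54 had a single barcode with over 10% of the UMIs of a library. *Ibsp*, a bone matrix sialoprotein, led the rises with 128 against 0 UMIs, and 1 barcode held 98.4% of them. *Spp1*, osteopontin, counted 1097 against 4 UMIs, with 96.9% in 1 barcode. *Mmp13*, collagenase 3, counted 205 against 1 UMIs, those with SAR131675 in 3 cells. *H2-Ab1* and *H2-Eb1*, chains of MHC class II, counted 125 against 18 and 150 against 25 UMIs. These rises rested on a few barcodes. In rule cells with *Rgs5* 23 of 1552 genes (1.48%) were higher and 41 (2.64%) lower, and without it 24 of 3536 (0.679%) and 39 (1.1%).

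The genes in which no barcode held over 10% of a library's UMIs, called spread genes, numbered 4013, of which 1 was at least 2-fold higher (0.0249%) and 8 lower (0.199%). The higher one was *Ssbp1*, a mitochondrial DNA-binding protein, at 68 against 36 UMIs. *Fosl2*, a member of the AP-1 family, counted 62 UMIs in 43 cells with SAR131675 and 172 in 72 cells with control diet, 51.9 against 131 CPM and a log2 ratio of -1.33 (-1.78 to -0.91). In smooth muscle-like cells *Fosl2* was at 260.1 against 267 CPM, and in fibroblast-like cells at 66.7 against 71.6 CPM. Its log2 ratio was -0.83 (-1.42 to -0.27) in rule cells without *Rgs5*. With *Rgs5* it was -2.04 (-2.79 to -1.39), where 1 barcode held 13.0% of its UMIs with SAR131675 and another 15.6% with control diet, so that it was no spread gene there. *Gfpt2*, an enzyme of hexosamine synthesis, counted 227 against 545 UMIs, a log2 ratio of -1.13 (-1.36 to -0.90). The other 6 lower genes were *Zbtb16*, *Socs2*, *Zfp592*, *Trim24*, *Ehd1* and *Arl13b*. None of these 9 genes reached 100 UMIs in the stricter cells, so they were not compared there. Without *Rgs5*, 1 of 2649 spread genes (0.0378%) was higher and 5 (0.189%) lower, and with it 0 of 245 either way.

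Summed over 10 genes, the heat shock list was lower with SAR131675 in each set of rule cells. Of the 10 genes, 8 lay below 0, beside 51.4% of all genes tested, with a median log2 ratio of -0.26 and 0 past 2-fold. *Hsph1*, a co-chaperone, was at 183 against 325 CPM, a log2 ratio of -0.82 (-1.07 to -0.59). *Hspa1a*, an inducible HSP70, was at 629 against 844 CPM, a log2 ratio of -0.42 (-0.56 to -0.29). The summed list had a log2 ratio of -0.30 (-0.36 to -0.25) over all rule cells, -0.46 (-0.55 to -0.37) with *Rgs5*, -0.24 (-0.31 to -0.18) without it, and -0.44 (-0.57 to -0.31) in the stricter cells. There 6 genes were tested and 1, *Hspb1*, lay above 0. *Hsph1* was also lower in smooth muscle-like cells, at 254 against 314 CPM, and in fibroblast-like cells, at 172 against 231 CPM, so its lower level was shared with other cells. The 17 immediate early genes, which respond within minutes to stimuli and to cell dissociation, moved with this list, at -0.27 (-0.31 to -0.23) over all rule cells, -0.18 (-0.26 to -0.11) with *Rgs5* and -0.29 (-0.34 to -0.24) without it, and 12 of 16 tested lay below 0 over all rule cells. They were at -0.05 (-0.16 to 0.06) in the stricter cells, where the heat shock list was at the -0.44 given above.

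The 5 erythroid genes, which mark red cells, had a summed log2 ratio of -2.03 (-2.27 to -1.79) over all rule cells, -1.61 (-1.88 to -1.34) with *Rgs5*, -3.46 (-4.06 to -2.91) without it and -0.64 (-0.96 to -0.33) in the stricter cells. Over all rule cells 1 barcode held 68.9% of these UMIs with SAR131675 and another 38.6% with control diet, and in the stricter cells 87.3% and 88.0%. The direction depended on the cells kept, since after thinning to 2000 UMIs *Hba-a1* was at 1.31, *Hba-a2* at 1.35 and *Hbb-bs* at 1.34. The pericyte genes outside the rule summed to 3627 against 3141 CPM over all rule cells, a log2 ratio of 0.21 (0.15 to 0.27). With *Rgs5* the log2 ratio was 0.08 (-0.01 to 0.17), and in the stricter cells 0.38 (0.27 to 0.50). In the stricter cells *Trpc6* counted 92 against 50 UMIs, a log2 ratio of 0.84 (0.34 to 1.38). The interstitial matrix list went from -0.77 (-0.82 to -0.72) with *Rgs5* to 0.08 (-0.01 to 0.18) in the stricter cells, beside a fibroblast list at -0.99 (-1.06 to -0.92) and 0.53 (0.36 to 0.71). The keratinocyte list was at -2.10 (-2.36 to -1.85) in the stricter cells, where 1 barcode held 88.4% of its UMIs in control diet, and its part in the other ratios was not tested. In the stricter cells 5 of 441 genes (1.13%) were at least 2-fold higher and 14 (3.17%) lower. *Crip1*, a small LIM protein, was among the higher ones, at 263 against 111 UMIs.

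The surgery pair set lymph node removal against sham. The share of rule cells with *Rgs5* was 0.878% in LNR and 0.740% in sham, a log2 ratio of 0.25 (-0.08 to 0.57). Without *Rgs5* it was 0.166% and 0.223%, a log2 ratio of -0.42 (-1.11 to 0.26). Smooth muscle-like cells made up 2.90% and 2.47% (log2 ratio 0.23, 0.06 to 0.40). The stricter cells were 110 of 19827 kept cells against 74 of 20669, a log2 ratio of 0.63 (0.19 to 1.08). They exclude cells with a *Krt5* UMI, which was found in 41.2% of the sham rule cells with *Rgs5* and 27.0% of those of LNR, so this ratio depends on that difference too.

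Over all rule cells, 55 of 3661 genes (1.5%) were at least 2-fold higher in LNR and 130 (3.55%) lower, and the median log2 ratio over all genes was 0.08. With *Rgs5* the counts were 69 of 2724 (2.53%) and 94 (3.45%), and without it 20 of 936 (2.14%) and 45 (4.81%). Of the 8 keratinocyte genes, 8 lay below 0 and 6 passed 2-fold, with a median log2 ratio of -1.26. *Wfdc17*, a secreted protein of the WAP family, counted 95 against 1728 UMIs, a log2 ratio of -3.87 (-4.19 to -3.57), and was at 1100.4 and 1104 CPM in leukocyte-like cells of LNR and sham. Genes of the cornified epidermis also stood among the 10 largest falls. *Lor*, loricrin of the cornified envelope, counted 18 against 217, and *Hrnr*, hornerin, 4 against 133. When 2 markers sufficed, these 3 genes turned to log2 ratios of 0.12 for *Wfdc17*, 0.087 for *Lor* and 0.64 for *Hrnr*. The keratinocyte list summed to 6622 against 15672 CPM, so the sham rule cells held over 2 times as much of this RNA. The excess lay in the cells with *Rgs5*, since without it the list was at 6825 against 5120 CPM, a log2 ratio of 0.41 (0.32 to 0.51). *Hbb-bs*, a hemoglobin chain, counted 39 against 342 UMIs, and 1 barcode held 75.7% of those in sham. The part of keratinocyte and red cell RNA in the other ratios was not tested.

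Most lists of mural and matrix genes were higher in LNR over all rule cells, and not in the stricter cells. The pericyte list outside the rule had 14 of 14 tested genes above 0 (median log2 ratio 0.57, with 2 past 2-fold), vascular tone outside the rule 8 of 8 (0.58), basement membrane 12 of 12 (0.61) and interstitial matrix 22 of 22 (0.67, with 1 past 2-fold), beside a median of 0.08 over all genes, of which 59.2% lay above 0. In vascular tone and basement membrane 0 genes passed 2-fold. Marker lists of other cells moved with these, with summed log2 ratios of 0.43 for fibroblast, 2.78 for osteoblast and 1.54 for tendon genes, and their part was not tested. The summed pericyte list was at 2468 against 1638 CPM over all rule cells, a log2 ratio of 0.59 (0.51 to 0.67). With *Rgs5* it was at 3055 against 1884 CPM, a log2 ratio of 0.70 (0.61 to 0.78), and without it the log2 ratio was -0.14 (-0.39 to 0.11). In the stricter cells it was at 5086 against 5027 CPM, a log2 ratio of 0.02 (-0.10 to 0.13), where the keratinocyte list was at 5202 against 5418 CPM and -0.06 (-0.17 to 0.05). The interstitial matrix list stayed above 0 there, at 0.19 (0.12 to 0.26), beside a fibroblast list at 7154 against 4558 CPM and 0.65 (0.54 to 0.76). The plot of summed lists shows this return toward 0 in the surgery pair.

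**Figure D4:**
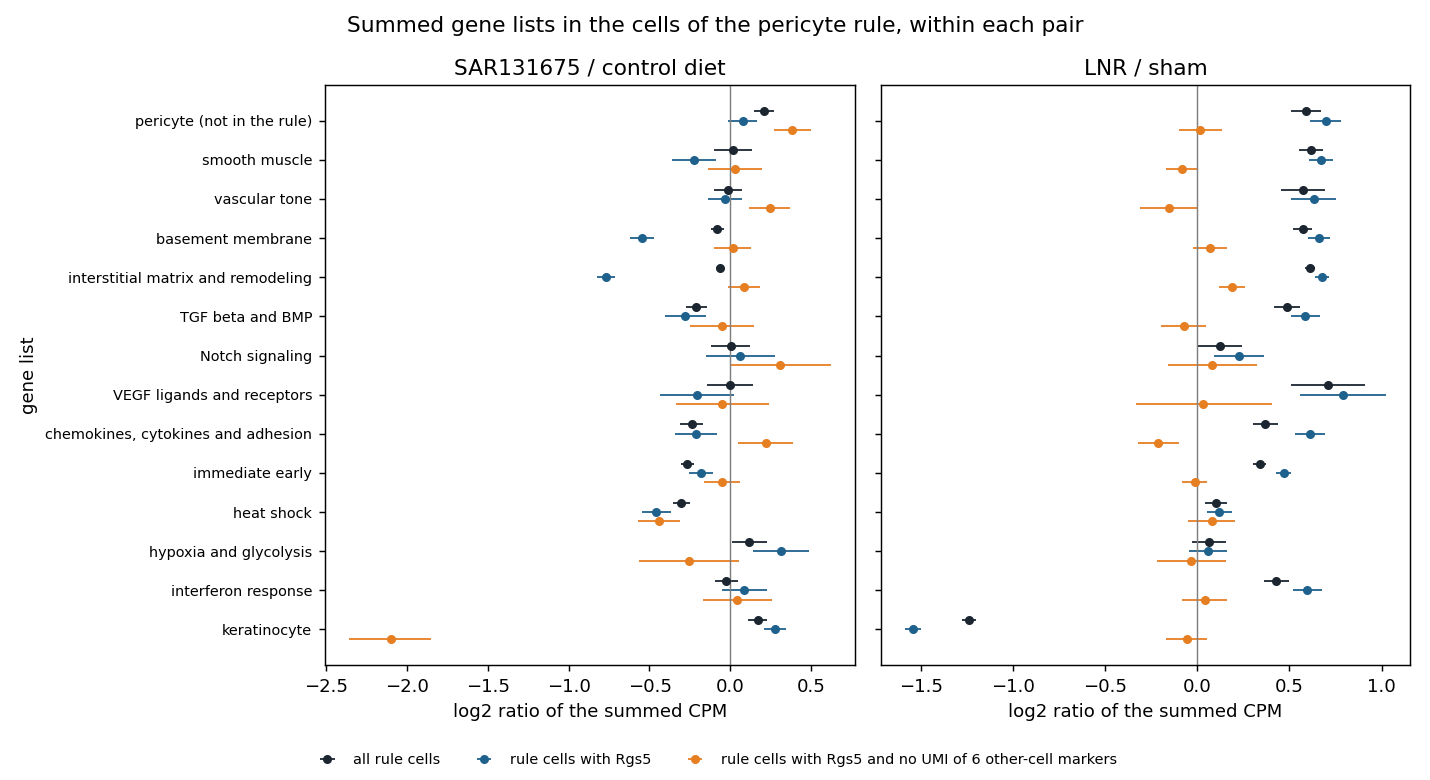
Log2 ratio of the summed CPM of gene lists (rows) within the diet pair (left) and the surgery pair (right), in all rule cells, in those with *Rgs5* and in the stricter cells with no UMI of 6 other-cell markers; bars are exact 95% intervals for counting error. In the surgery pair the pericyte list moves from 0.70 with *Rgs5* to 0.02 in the stricter cells and the keratinocyte list from -1.55 to -0.06, and in the diet pair the heat shock list lies at -0.44 in the stricter cells.

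Of the 185 genes past 2-fold in LNR, 161 had a barcode with over 10% of the UMIs of a library. *Ibsp* counted 835 against 98 UMIs, those in LNR in 7 cells, and *Saa3*, an acute phase protein, 315 against 1, those in LNR in 7 cells. Of 3057 spread genes, 15 were higher (0.491%) and 9 lower (0.294%). *Cox4i2* counted 160 UMIs in 76 cells against 89 in 54, a log2 ratio of 1.16 (0.78 to 1.55). *Serpine2*, an inhibitor of thrombin and urokinase, counted 600 against 340, a log2 ratio of 1.13 (0.94 to 1.33). The 9 lower ones included *Ppl*, *Dsc3*, *Trim29* and *S100a14*, which are epithelial genes. Of the 24 spread genes past 2-fold, 6 reached 100 UMIs in the stricter cells, where 6 of 6 kept their direction, 0 passed 2-fold and the median went from 1.08 to 0.35. The stricter cells are part of the cells in which these genes were called, so the kept direction is no separate support. There *Serpine2* was at 0.24 (-0.08 to 0.57), *Cox4i2* at 0.40 (-0.10 to 0.94) and *Lhfp* at 0.83 (0.30 to 1.41).

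In rule cells with *Rgs5*, 25 of 2196 spread genes (1.14%) were at least 2-fold higher in LNR and 6 (0.273%) lower. *Il6*, the inflammatory cytokine, was at 384 against 190.0 CPM. In the stricter cells *Il6* counted 234 against 119 UMIs, a log2 ratio of 0.35 (0.03 to 0.69). Of the 31 genes, 12 could be compared in the stricter cells, again part of the same cells, where 11 kept their direction and 0 passed 2-fold. Over all genes in the stricter cells, 8 of 758 (1.06%) were at least 2-fold higher and 9 (1.19%) lower, and *Gsn*, the actin-severing gelsolin, counted 717 against 218 UMIs, a log2 ratio of 1.10 (0.88 to 1.33). The fibroblast gene *Dcn* moved with it in these cells, at 464 against 29 UMIs and a log2 ratio of 3.36 (2.84 to 3.98), and its part in the *Gsn* value was not tested. *Ednrb*, an endothelin receptor, had a log2 ratio of -0.78 (-1.28 to -0.28) there, short of 2-fold. It lay above 0 over all rule cells and in those with *Rgs5*. Of the 11 vascular tone genes compared in the stricter cells, rule genes included, it was the lowest, and their median was -0.05. Immediate early genes summed to a log2 ratio of 0.34 over all rule cells and -0.01 (-0.08 to 0.05) in the stricter cells.

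The 2 pairs shared no control library. Of 3202 genes tested in both, 4 were at least 2-fold higher in both pairs, of 11 higher in the diet pair and 37 in the surgery pair, and 5 were lower in both, of 18 and 67. Another 5 passed 2-fold in opposite directions, and across genes, which are not independent replicates, Pearson's r was -0.024 and Spearman's rho -0.17. With *Rgs5* r was -0.24 and rho -0.38 over 1302 genes, of which 9 passed 2-fold in opposite directions, and without it r was 0.11 and rho -0.0029 over 894. No overlap was computed in the stricter cells. The higher ones were *Ibsp*, *Mmp13*, *Prg4* and *Serpine2*. *Prg4* counted 1080 against 126 UMIs in the diet pair, 93.7% of the former in 1 barcode, and 6405 against 3505 in the surgery pair. *Serpine2* counted 828 against 371 UMIs in the diet pair, with 33.1% of the former in 1 barcode, and had log2 ratios of 1.29 and 1.13. Without its top barcode in each library *Prg4* was at -0.33 in the diet pair, and with 4 markers *Serpine2* was at -0.26 there. With 2 markers *Mmp13* was at -0.28 in the diet pair. In the surgery pair *Prg4* was at -0.34 with no upper limits, -0.072 in cells without *Rgs5* and -1.57 in the stricter cells. In these stricter cells 1 barcode held 70.4% of its UMIs in LNR and another 94.8% in sham. The lower ones were *Hbb-bs*, *Cst6*, *Hba-a2*, *Hba-a1* and *Ly6g6c*, of red cells and epidermis. In the surgery pair with 2 markers *Hbb-bs* was at 0.67 and both *Hba-a1* and *Hba-a2* at 0.85. In the diet pair the 3 hemoglobin genes turned above 0 after thinning, as given above, and *Cst6* was at 1.62 with no upper limits. The opposite ones were *Igfbp2*, *Sfrp2*, *Krt15* and *Cd74*, higher with SAR131675 and lower in LNR, and *Angptl7*, the other way.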

How the data were processed

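All 4 libraries hold UMI counts per gene and barcode for 33696 genes, as deposited by the authors in filtered matrices made with Cell Ranger, with no normalization. The submitters' processing notes give Cell Ranger 6.1.2 and build GRCm39 for all 4, while the file headers give 6.1.2 for LNR and sham and 8.0.1 for the diet libraries. Filters on genes, UMIs and mitochondrial share and the rule for cells are stated above, and no doublet caller was run. UMIs were summed over the cells of a set in each library and divided by the set's total to give CPM. Ratios within a pair were taken for genes with at least 100 UMIs in both libraries together. In the ratio of a gene 0.5 UMIs were added to each sum, and its interval was taken without them. Intervals were exact (Poisson for CPM, Clopper-Pearson for shares, conditional binomial for ratios) at 95%. They cover counting error only, since each condition is 1 library, so no p-value is given. A gene was called past 2-fold within a pair, and past 4-fold in every library between sets of cells.

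Named genes were those of the rule, the 20 highest in rule cells, the 10 highest and 10 lowest against smooth muscle-like cells, the 10 largest rises and falls in each pair and in both pairs, and examples from the gene lists. A gene among the rises with SAR131675 is not reported here. Other genes, among them the spread genes, those of the stricter cells and those described with or without *Rgs5*, were chosen after their values were seen. The members and lists were chosen with earlier results of these data known. Promoters came from RefSeq on GRCm38.p6, another build than the counts, and were joined by symbol, with 3 of 3 matched. Alternatives changed the marker number, the limits, the depth, the scaling, the minimum count and the weight of cells. The ratio script was tested on simulated data. Python 3.11.15, numpy 2.4.6, scipy 1.17.1, pandas 2.3.3 and matplotlib 3.10.9 were used.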

Additional observations from a re-analysis of the deposited data

How the results depend on the processing

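Counts of genes past 2-fold over all rule cells were 63 of 4907 genes tested in the diet pair and 185 of 3661 in the surgery pair. They moved with many choices that changed the cells or the minimum count, and so did the number of genes tested. They moved less with no *Myh11* UMI, at 48 higher and 33 lower of 4442 genes in the diet pair. In the surgery pair these were 30 and 96 of 2750. At 5% mitochondrial UMIs they were 31 and 26 of 4825 in the diet pair and 60 and 139 of 3322 in the surgery pair. The diet and surgery counts were 36 of 900 and 50 of 1547 with 4 markers, and 135 of 11292 and 73 of 8951 with 2 markers. With no upper limits they were 209 of 8618 and 285 of 4541, and after thinning to 2000 UMIs 15 of 724 and 11 of 690. They were 27 of 564 and 19 of 788 in rule cells without UMIs of the 6 other-cell markers. With no minimum count they were 5022 of 17844 and 5093 of 16905, and with a minimum of 300 UMIs 10 of 1647 and 68 of 1189. The diet count was 114 of 4907 with every cell weighted equally. Among alternatives chosen after seeing the data, the counts were 9 of 4013 and 24 of 3057 for spread genes. In the stricter cells they were 19 of 441 and 17 of 758. They were 64 of 1552 and 163 of 2724 in cells with *Rgs5*, and 63 of 3536 and 65 of 936 in cells without it. A lower or higher count can thus come with fewer or more genes tested, and otherwise the cause was not tested. The 81 genes at least 4-fold above other cells became 22 with 2 markers, 48 with no *Myh11* UMI, 52 with no upper limits, 165 after thinning, 167 without the other-cell markers, 1174 with no minimum and 44 with a minimum of 300 UMIs. The genes tested in each of these settings were not counted, so the shares cannot be given.

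The log2 ratio of shares in the diet pair (-0.29) became 0.19 without the other-cell markers, 0.29 in the stricter cells and 0.12 with no *Myh11* limit. In the surgery pair (0.12) it became 0.66 without the other-cell markers, 0.63 in the stricter cells and -0.42 in cells without *Rgs5*. Within the counting interval its sign also turned in the diet pair with 2 markers (0.033) and with *Rgs5* (0.042), and in the surgery pair with no *Myh11* UMI (-0.080).

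Of 660 values of named genes under these alternatives, 27 changed sign from a main ratio past 2-fold. Of the rest, 385 lay within the counting interval of the main ratio and 248 outside it. Changes of sign from a main ratio short of 2-fold are in these 2 groups and were not counted apart. The 27 are given next. With 4 markers *Serpine2* was at -0.26 in the diet pair. With 2 markers *Mmp13* was at -0.28 and *Prg4* at -0.023 in the diet pair, and in the surgery pair *Flg* was at 0.42, *Hba-a1* at 0.85, *Hba-a2* at 0.85, *Hbb-bs* at 0.67, *Hrnr* at 0.64, *Lor* at 0.087, *Wfdc17* at 0.12 and *Wfdc21* at 0.57. With no upper limits *Cst6* was at 1.62 and *Hbb-bs* at 0.056 in the diet pair and *Prg4* at -0.34 in the surgery pair. At 5% mitochondrial UMIs *Hba-a1* was at 0.021 in the diet pair, and after thinning *Hba-a1* was at 1.31, *Hba-a2* at 1.35 and *Hbb-bs* at 1.34. In the surgery pair *Calm4* was at 0.18 and *Prg4* at -1.43 without the other-cell markers, and at 0.25 and -1.57 in the stricter cells. In cells without *Rgs5*, *Prg4* was at -0.32 in the diet pair and -0.072 in the surgery pair, with *Calm4* at 0.48 and *Krt1* at 3.05. Without its top barcode in each library *Prg4* was at -0.33 in the diet pair. No paired analysis was possible because each condition is 1 library with no replicate. In the stricter cells, which were fewer and shallower than all rule cells, 441 and 758 genes reached 100 UMIs in the diet and surgery pairs.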
